A study of Homo sapiens with 4 samples.

Results

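The BEX (brain expressed X-linked) and TCEAL (transcription elongation factor A-like) genes are small neighbouring genes of 1 stretch of the human X chromosome, and their transcripts were followed here in the established human glioblastoma line U87-MG. The members were 10 genes listed by symbol (BEX1 to BEX5, TCEAL1, TCEAL3, TCEAL4, TCEAL8 and TCEAL9), each found once among the 23444 gene entries of the count table and of the FPKM table. The families were chosen by their values in this same comparison, the changes in counts between knockdown and control libraries, so these changes are given as a description. Where the text says that a member was past the threshold, that is its place in the fit over all genes, which is no independent test of the member. The study has 4 RNA-seq libraries of U87-MG: 2 labelled as the negative control, named shCON here, and 2 labelled as MAGED2 knockdown, named shMAGED2. The series design calls this a stable knockdown of MAGED2 by short hairpin RNA, with a control hairpin in the shCON cells. The treatment protocol shared by all samples names hairpins against ZDHHC15 and a scrambled hairpin, brought in by transient transfection with harvest after 36 h, so that the delivery and, in that text, the target differ from the design. Both groups are the same line, grown in the same medium, and no source used here says whether 1 or several hairpins or clones were used, or whether the replicates were separate cultures. The p-values for other genes therefore measure only the spread between these libraries, which may be technical.

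BEX proteins are short, largely unstructured and found in placental mammals. They act by binding partners and have no known enzyme activity. BEX3, also called NADE, was found as a partner of the death domain of the neurotrophin receptor NGFR, BEX1 binds the same receptor, and BEX2 occurs in complexes with the factor LMO2. BEX1 and BEX2 are known in glioma as genes that are often silenced by promoter methylation. The TCEAL proteins take their name from a resemblance to TCEA1 (TFIIS), which restarts stalled RNA polymerase II, and TCEAL9, also called WBP5, was first described as a protein that binds WW domains.

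Total counts were 28673774 to 36234336 per library. MAGED2, the targeted gene, stood at 175 and 178 CPM (counts scaled to library size, with TMM factors) in shCON and at 17.9 and 21.7 CPM in shMAGED2, or 11.2% of control, and ZDHHC15 had 0 counts in all 4 libraries. Library shMAGED2 replicate 1 stood apart: mitochondrially encoded genes took 10.1% of its counts, against 3.92% and 3.9% in shCON and 4.87% in shMAGED2 replicate 2. With these genes removed before the fit, the log2 changes were −1.84 for BEX1, −2.17 for BEX2 and −1.49 for BEX4, and 5 members were past the threshold, as with them. Of 15 glioma and glial markers, VIM (4004 FPKM in shCON), CHI3L1 (417 FPKM), CD44 (231 FPKM), TNC (133 FPKM) and EGFR (22.0 FPKM) were present. AQP4 and OLIG1 had 0 counts, and GFAP (0.838 FPKM), S100B (0.233 FPKM) and SOX2 (0.0212 FPKM) were near 0. The 10 neuronal markers summed to 88.8 to 93.6 FPKM in shCON and 126 to 157 FPKM in shMAGED2, mostly TUBB3, and STMN2 was at 0 counts. The 13 markers of blood, endothelial and epithelial cells and of liver summed to 245 to 248 FPKM in shCON and 201 to 299 FPKM in shMAGED2. CD68, a lysosomal protein, made up nearly all of that sum, with CDH1 and HBB among those at 0 counts. The part of these markers in the members' values was not tested.

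All 10 members lie on the X chromosome between positions 102153708 and 103630953 (hg38, GENCODE 29), and the 9 without BEX5 lie within 568.3 kb. Of the 10, 6 are on the plus strand and 4 on the minus strand, and in the main transcript of each the coding sequence lies in 1 exon. BEX1 (103062651 to 103064240) and BEX2 (103309346 to 103311046) have coding sequences that are 92.4% identical, the closest pair of the 14 BEX and TCEAL genes. Of the 50-base words of the BEX1 transcript, 3.19% also occur in another gene of the families (BEX2), and 2.38% of those of BEX2 occur in BEX1 or BEX4. TCEAL3 (103607451 to 103629690) overlaps TCEAL1 (103628704 to 103630953) on the same strand, with 287 exon bases in common, and 19.3% of its 50-base words occur in TCEAL1, TCEAL5 or TCEAL6. For TCEAL1 that share was 14.4%, and for BEX3, BEX5, TCEAL8 and TCEAL9 it was 0. No source used here states how reads that fit several genes were counted, so the values of TCEAL3 and TCEAL1 are uncertain, and to a lesser degree those of BEX1 and BEX2.

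The promoters of the members carry a shared element, shown because it is a feature of sequence that the choice of members did not use. Each line gives 30 bases from the RefSeq promoter table (GRCh38.p14), 5′ to 3′ on the gene's own strand. The 10-base stretch that best matches TCACGTGACC is set within it, with matching bases in capitals. The inner CACGTG is an E-box, a palindrome bound by basic helix-loop-helix factors such as MYC, USF and TFEB.
BEX1: gtgacgcacggcccTCACGTGACCgggagc
BEX2: cgatgacaacagccaCACGTGAtCggccaa
BEX3: gtgacgcgcggcccTCACGTGACCcagagc
BEX4: cgatgacaacagcccCACGTGACCggccaa
BEX5: atctgagctcacagTgACGTGACCcttagg
TCEAL1: gtgacgcgcgtcccTCACGTGACCaggagc
TCEAL3: gggtgacgcggcgcTCACGTGACCcgccgg
TCEAL4: ctgggctgcggcatTCACGTGAtCtgcacg
TCEAL8: tgatgacgcgactcTCACGTGACCaggagt
TCEAL9: tggtgacgtagatcTCAtGTGACCaggagt

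On the minus strand the stretches lie at chrX:103064204-103064233 (BEX1), chrX:103310995-103311024 (BEX2), chrX:102156015-102156044 (BEX5) and chrX:103255172-103255201 (TCEAL8). On the plus strand they lie at chrX:103376476-103376505 (BEX3), chrX:103215074-103215103 (BEX4), chrX:103628904-103628933 (TCEAL1), chrX:103607868-103607897 (TCEAL3), chrX:103585490-103585519 (TCEAL4) and chrX:103356454-103356483 (TCEAL9). The match began 11 to 81 bases before the RefSeq start of transcription, and 9 of the 10 stretches lie at least partly inside the gene as GENCODE 29 draws it. BEX3, BEX4, BEX5 and TCEAL1 have more than 1 RefSeq start. Among starts with an equally good match, the one that put it upstream and nearest to a fixed distance was used. The distances of these genes therefore follow in part from that rule. All 10 bases matched in 5 members, 9 bases in BEX4, BEX5, TCEAL4 and TCEAL9, and 8 bases in BEX2.

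Searched on both strands, a match of at least 9 of the 10 bases was found for 9 of 10 members and for 3.5% of the 27305 genes with a promoter in the table (windows of 250 bases before to 50 after the start). A match of at least 8 bases, the level of BEX2, was found for 20% of genes. The word TCACGTGA inside the element was present in 6 of 10 members and in 1.18% of genes, and CACGTG alone in 8 of 10 members and in 8.77% of genes. The other TCEAL genes with a window, TCEAL2, TCEAL5 and TCEAL6, have at least 9 matching bases too, so that 12 of 13 genes of the families do, and all 13 have at least 8. The TATA sequence TATAAA was found in 0 of 10 members and in 14% of genes. GGGCGG was found in 8 of 10 members against 48.3% of genes, and CCAAT in 4 of 10 against 39.7%. The element is a 10-base word found whole in the most member promoters (5, as many as 1 other word, the same run shifted by 1 base), and the search was made after these promoters had been read, so its frequency among the members is a description.

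The promoters, with the starts chosen as above, also fell into close pairs. Over the 250 bases before the start, BEX2 and BEX4 were 85.1% identical and BEX1 and BEX3 were 70.2% identical, the highest of all pairs, although in coding sequence BEX1 pairs with BEX2 (92.4%), BEX2 and BEX4 share 63.3%, and BEX1 and BEX3 share 59.4%. The 5 members past the threshold described next (BEX1, BEX2, BEX4, TCEAL8, TCEAL9) had 10, 8, 9, 10 and 9 matching bases. The other 5 (BEX3, BEX5, TCEAL1, TCEAL3, TCEAL4) had 10, 9, 10, 10 and 9. Since the element was picked for being common to the members, all had 8 to 10, and a link between the element and the changes was not tested.

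**Figure D1:**
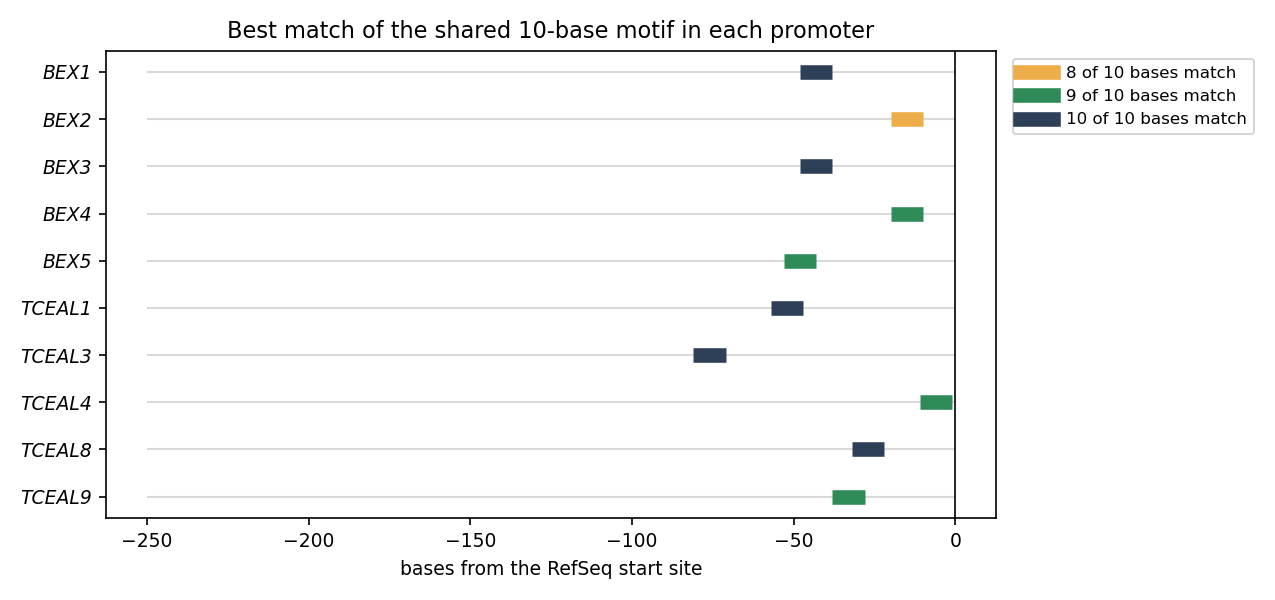
Position of the best match to the shared 10-base element in the promoter of each member, in bases before the RefSeq start site (0); colour gives the number of matching bases. The matches begin between 81 and 11 bases before the start, and those of BEX2 and BEX4, and of BEX1 and BEX3, lie at the same distance (20 and 48 bases). For BEX3, BEX4, BEX5 and TCEAL1, which have several starts, the start was chosen by the position of the match.

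Levels in control cells, which can be compared between genes only per length, spanned from near 0 to among the highest of the transcriptome. In deposited FPKM (fragments scaled by transcript length and library depth) TCEAL9 was at 186 and 182 in the 2 shCON libraries, above 98.4% of the 15293 tested genes, and BEX3 at 158 and 153. TCEAL8 (65.4 and 63.1 FPKM) and TCEAL4 (60.2 and 61.4 FPKM) followed. BEX1 (43.3 and 38.3 FPKM) and BEX2 (41.5 and 39.5 FPKM) were next and could not be ordered within their spread, nor could TCEAL3 (32.2 and 32.4 FPKM) and BEX4 (28.8 and 32.6 FPKM). TCEAL1 was at 24.4 and 24.3 FPKM. BEX5 was nearly silent at 0.324 and 0.343 FPKM, from 10 and 9 counts, and only 7.81% of tested genes were lower. Of the members' summed FPKM, TCEAL9 held 29% in each shCON library and BEX3 24.7% and 24.4%.

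**Figure D2:**
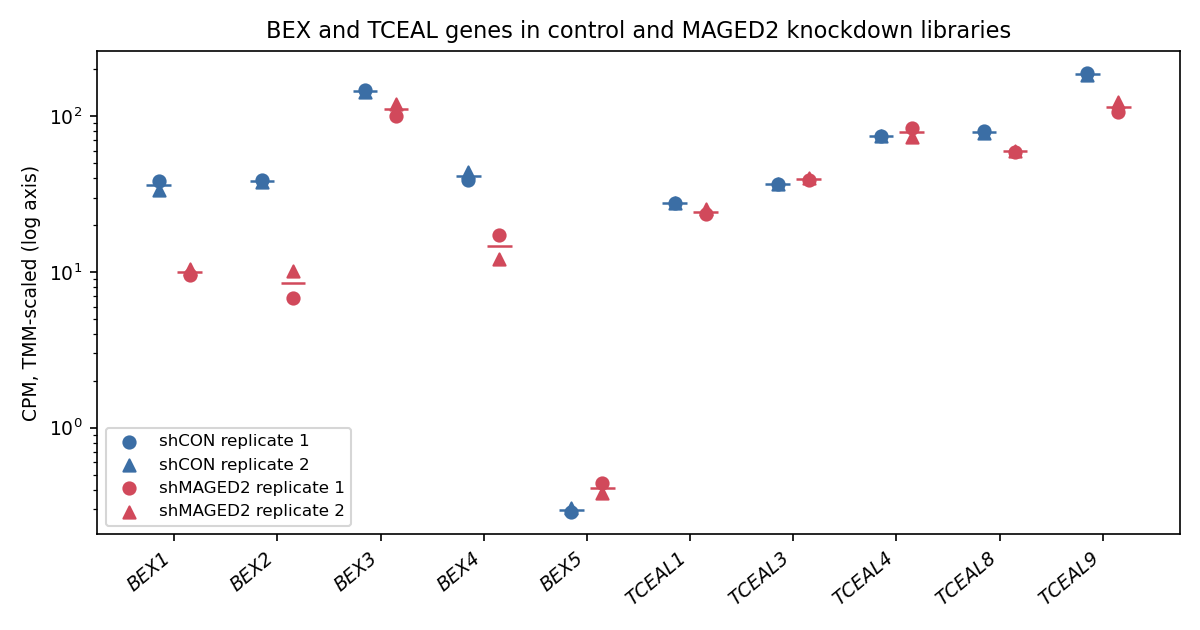
CPM of each member in the 4 libraries on a log axis, with circles for replicate 1, triangles for replicate 2 and short lines for group means. BEX1, BEX2 and BEX4 lie between 33.7 and 43.9 CPM in shCON and between 6.79 and 17.2 CPM in shMAGED2, whereas the TCEAL3 and TCEAL4 points of both groups lie close together.

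Of the 10 members, all of which passed the count filter, 5 were past the threshold in shMAGED2 against shCON and lower (a Benjamini-Hochberg adjusted p under 0.05 by edgeR's quasi-likelihood test over 15293 genes), and 0 were past it and higher. Over all genes tested 11.6% were called lower and 12.3% higher, 23.9% in all. Since the members were chosen with this contrast known, nothing is read from the count. No member was higher at an unadjusted p under 0.05 either (0), nor by DESeq2 (0) or limma-voom (0). The median log2 change of the members was −0.41, against 0.0028 over all genes tested. Both shMAGED2 libraries lay below both shCON libraries for 7 members and above them for 2, where 33% of all genes did each (66% in all). In such bulk samples fewer cells that carry a transcript and less of it per cell cannot be told apart.

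BEX2, BEX1 and BEX4 had the lowest share of control left after knockdown. BEX2 was at 38.8 and 37.9 CPM in shCON and at 6.79 and 10.1 CPM in shMAGED2 (38.4 ± 0.63 against 8.43 ± 2.32 CPM, SD, n = 2), which left 22% of control and a log2 change of −2.18 (SE 0.21). The shCON pair was nearly equal, and the shMAGED2 pair, both far lower, differed 1.48-fold. BEX1, the receptor-binding member closest to BEX2 in coding sequence, was at 38.1 and 33.7 CPM in shCON and at 9.54 and 10.5 CPM in shMAGED2. This left 27.9% of control, with a log2 change of −1.84 (SE 0.15), and within each group the libraries differed by at most 1.13-fold. BEX4, known to bind tubulin and the deacetylase SIRT2, was at 38.9 and 43.9 CPM in shCON and at 17.2 and 12.2 CPM in shMAGED2 (35.5% of control, log2 change −1.50, SE 0.20).

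BEX2 and BEX4 differed in opposite directions between the shMAGED2 libraries. Replicate 2 was higher than replicate 1 by 0.57 on the log2 scale for BEX2 and lower for BEX4 (−0.50), and the FPKM ratio of BEX2 to BEX4 was 1.44 and 1.21 in shCON but 0.568 and 1.22 in shMAGED2. This pair, with promoters 85.1% identical, was lower in both shMAGED2 libraries but not in the same order. The FPKM ratio of BEX1 to BEX2 was 1.04 and 0.968 in shCON and 1.5 and 1.08 in shMAGED2.

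BEX3, whose product binds NGFR, was much more abundant and lay closer to control. It was at 148 and 143 CPM in shCON and at 101 and 120.0 CPM in shMAGED2, or 75.9% of control. The groups did not overlap, the shMAGED2 pair differed 1.19-fold, and the log2 change of −0.40 (SE 0.11) was not past the threshold. It was past the threshold in 7 of 18 fits, among them DESeq2, limma-voom and those that left 1 shMAGED2 library. In the latter the log2 changes were −0.28 and −0.53, without shMAGED2 replicate 1 and 2. The spread there comes from the shCON pair alone, which differed less (chi-square of the counts per degree of freedom 7.42) than the shMAGED2 pair (89.48). The FPKM ratio of BEX1 to BEX3 was 0.274 and 0.25 in shCON and 0.1 and 0.0927 in shMAGED2.

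BEX5 had 10 and 9 counts in shCON and 13 and 14 in shMAGED2, or 0.287 and 0.307 against 0.441 and 0.381 CPM. The ratio of shMAGED2 to shCON was 1.38 with a 95% exact conditional interval of 0.739 to 2.62, which covers counting error only. A change of BEX5 was not detectable at this depth.

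Among the TCEAL members, TCEAL9, the WW-binding protein and the most abundant member, was lower by the most. It was at 190.3 and 185 CPM in shCON and at 106 and 123 CPM in shMAGED2 (188 ± 3.71 against 114 ± 12.3 CPM, SD, n = 2). This left 60.9% of control, with a log2 change of −0.71 (SE 0.11), and the groups did not overlap. TCEAL8 was at 80.4 and 78.0 CPM in shCON and at 58.9 and 60.2 CPM in shMAGED2, or 75.2% of control (log2 change −0.41, SE 0.10), with each pair within 1.03-fold. Its change was as large as that of BEX3, but its shMAGED2 pair agreed more closely, and it was past the threshold.

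The 3 TCEAL members at the far end of the cluster were not past the threshold. TCEAL1 was at 27.6 and 27.9 CPM in shCON and at 23.5 and 25.3 CPM in shMAGED2 (log2 change −0.19, SE 0.13). TCEAL3 was at 36.8 and 37.0 CPM in shCON and at 38.7 and 39.9 CPM in shMAGED2 (0.09, SE 0.11), and TCEAL4 at 74.6 and 74.6 CPM in shCON and at 83.9 and 73.5 CPM in shMAGED2 (0.08, SE 0.11). TCEAL4 was the member whose groups overlapped, and its value was −0.021 without shMAGED2 replicate 1.

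The other 4 TCEAL genes were TCEAL2, TCEAL5, TCEAL6 and TCEAL7. TCEAL2, TCEAL5 and TCEAL6 had 0 counts in all 4 libraries, which allows up to 0.0817 to 0.102 CPM (limit of 3 counts per library). Of their 50-base words, 6.94%, 10.8% and 22.8% also occur in other genes of the families. The limit does not allow for reads that fit several genes, whose counting is not stated. TCEAL7 was at 61.0 and 63.0 CPM in shCON and at 48.9 and 60.1 CPM in shMAGED2 (log2 change −0.19, SE 0.13; adjusted p = 0.354 by edgeR's quasi-likelihood test with Benjamini-Hochberg). Without shMAGED2 replicate 2 its log2 change was −0.34.

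**Figure D3:**
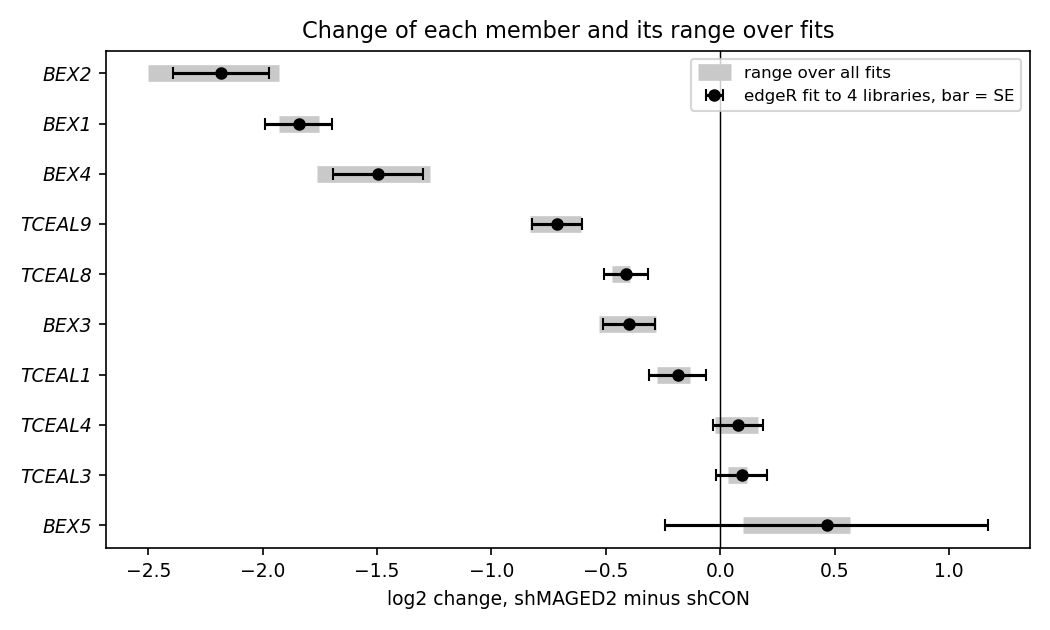
Log2 change of each member (shMAGED2 minus shCON) with its standard error, and in grey the range over all fits in which it was tested. BEX2, BEX1 and BEX4 lie at −1.50 or below, TCEAL9, TCEAL8 and BEX3 between −0.71 and −0.40, and the 4 others near 0 or, for BEX5, with an SE of 0.70.

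Leaving out a control library ended calls. With either shCON library left out, 3 members were past the threshold, BEX1, BEX2 and BEX4. TCEAL9 had log2 changes of −0.70 and −0.73 there, and TCEAL8 −0.39 and −0.43. Without shMAGED2 replicate 1 or 2, 6 members were past it.

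The make-up of the members' summed RNA differed between the groups. Summed over the 10 members, FPKM was 640.1 and 628 in shCON and 383 and 444 in shMAGED2, or 65.3% of control. The deposited FPKM are not scaled by TMM factors, and each member's share of control was lower in FPKM than in CPM. For TCEAL9 it was 58.6% against 60.9%, and for TCEAL8 72.3% against 75.2%, so the sums may overstate the loss. The sums also leave out TCEAL7, a family gene that is not a member. It was at 51.5 and 52.9 FPKM in shCON and at 38.3 and 50.1 FPKM in shMAGED2, or 84.6% of control. The BEX members went to 54% of control, from 272 and 264 to 130 and 160 FPKM in sum, and the TCEAL members to 73.6%, from 368 and 363 to 254 and 284 FPKM. BEX1, BEX2 and BEX4 each took a smaller part of the sum in shMAGED2 than in shCON. BEX1 took 6.77% and 6.1% of the sum in shCON and 2.63% and 2.67% in shMAGED2. BEX2 took 6.48% and 6.3% against 1.75% and 2.46%, and BEX4 took 4.49% and 5.19% against 3.08% and 2.02%. TCEAL4 took 9.41% and 9.79% in shCON and 16.7% and 13.3% in shMAGED2. BEX3 stood above TCEAL9 in both shMAGED2 libraries (FPKM ratio 1.05 and 1.06) and below it in both shCON libraries (0.853 and 0.842).

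**Figure D4:**
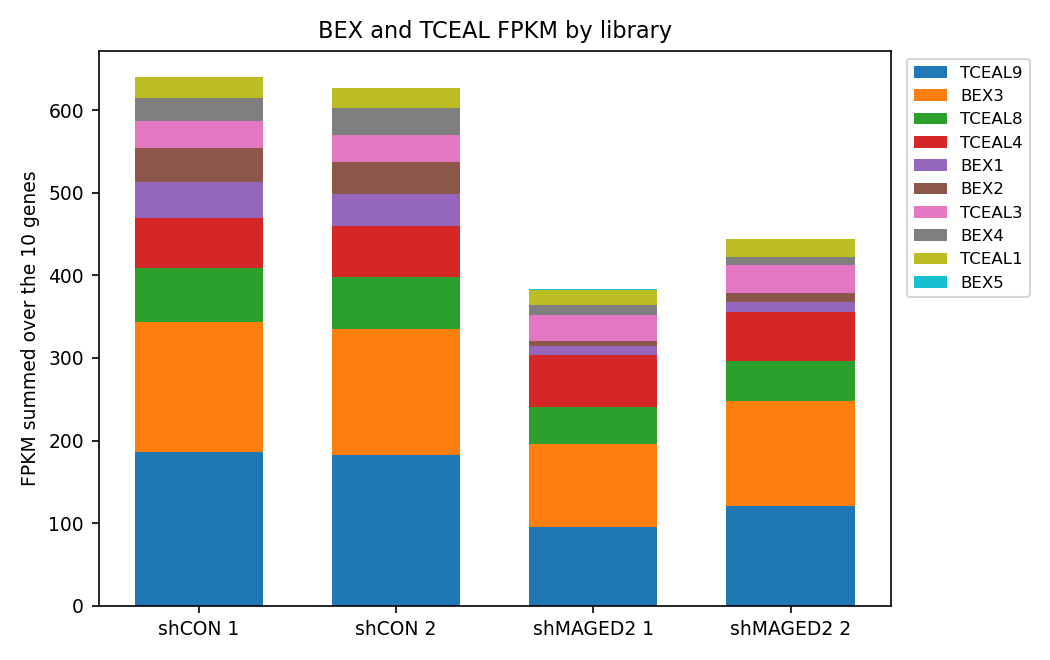
Deposited FPKM of the 10 members stacked by library, in the order of their shCON level. The stacks reach 640.1 and 628 FPKM in shCON and 383 and 444 FPKM in shMAGED2, and the segments of BEX1, BEX2 and BEX4 lose the most relative to their own height, while that of TCEAL9 loses the most FPKM.

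Neighbouring genes were called about as often as all genes. The ARMCX and GASP genes lie next to the BEX and TCEAL genes on the X chromosome, and ARMCX proteins include mitochondrial trafficking factors. Of 9 measured, 2 fell and 0 rose (edgeR; 22.2% called, against 23.9% of all genes), with a median log2 change of −0.38. None was higher at an unadjusted p under 0.05 (0), nor by DESeq2 (0) or limma-voom (0). ARMCX3, which links mitochondria to kinesin motors, fell from 148 and 153 CPM to 78.7 and 100.2 CPM (log2 change −0.75, SE 0.14; edgeR, Benjamini-Hochberg adjusted p = 0.014). ARMCX4 fell from 13.9 and 11.9 CPM to 4.62 and 7.27 CPM (−1.11, SE 0.26, adjusted p = 0.0316 by the same test). Of the 9, 0 passed without shCON replicate 1 or 2, and 3 and 6 passed without shMAGED2 replicate 1 and 2. ARMCX3 shares 460 exon bases with ARMCX3-AS1 and ARMCX4 shares 52 with PPIAP90, both on the opposite strand, and no source used here states whether the counting used strand.

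Of the other X-linked neighbours, with 23 entries tested, 4 rose and 1 fell (21.7% called, against 23.9% of all genes), with a median of 0.25. CENPI, a centromere protein, rose from 9.29 and 9.85 CPM to 31.2 and 35.5 CPM (log2 change 1.80, SE 0.15; edgeR, Benjamini-Hochberg adjusted p = 0.00132). The other rises were TMEM35A (2.17, SE 0.57), DRP2 (0.80, SE 0.19) and CSTF2 (0.77, SE 0.18), and ZMAT1 fell (−1.50, SE 0.38). TMEM35A, with 7 to 47 counts a library, lost its call without any 1 of the 4 libraries. In this list 2 genes passed without shCON replicate 1, and 1 without shCON replicate 2. Within the members themselves, those at 0 to 292.2 kb from the BEX1 start (BEX1, BEX4, TCEAL8, BEX2 and TCEAL9) were the 5 past the threshold, while TCEAL7, at 266 kb in between, was not. BEX3 followed at 312.1 kb, and TCEAL4, TCEAL3 and TCEAL1 lay at 512 to 564.5 kb. The log2 change of BEX3 (−0.40) was close to that of TCEAL8 (−0.41), so the edge of this run rests on the threshold.

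**Figure D5:**
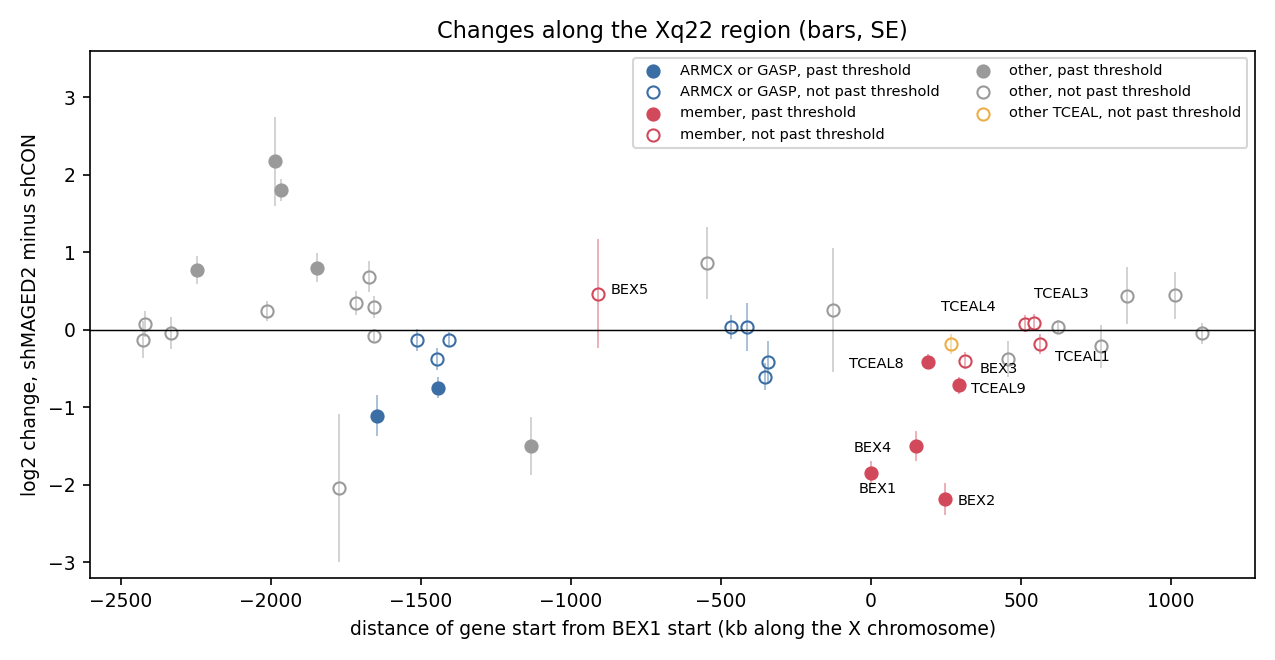
Log2 change (shMAGED2 minus shCON, bars are SE) of BEX, TCEAL and neighbouring genes against the distance of their start from that of BEX1; filled points are past the threshold. SLC25A53, with an SE of 1.74, is not drawn. The 5 filled BEX and TCEAL points lie within 292.2 kb, with the open TCEAL7 point among them. The open BEX3 point, with a change close to that of TCEAL8, is next. Filled points of other genes lie only on the side before BEX1, both above 0 (CENPI, TMEM35A, DRP2, CSTF2) and below it (ARMCX3, ARMCX4, ZMAT1).

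Of the receptor that BEX1 and BEX3 bind there were almost no counts. NGFR had 3 counts in shCON replicate 2 and 0 in the other 3 libraries, and NTRK2, the receptor of BDNF, had 0 counts in all 4, so a change in them was not detectable at this depth. Another neurotrophin receptor, NTRK3, had 3 and 8 counts in shCON and 30 and 33 in shMAGED2 and did not pass (log2 change 2.42, SE 0.76; edgeR, Benjamini-Hochberg adjusted p = 0.0668). Of 24 measured genes of the neurotrophin receptor list, 5 rose and 3 fell, 33.3% against 23.9% of all genes, with a median of −0.0098. The co-receptor SORT1 rose (0.54, SE 0.11). Downstream, ARHGDIA (0.75, SE 0.12), which holds small GTPases inactive, YWHAE (0.53, SE 0.10), an adaptor known to bind BEX3, JUN (0.47, SE 0.08) and the kinase IRAK1 (0.49, SE 0.11) rose. The kinase RIPK2 (−0.45, SE 0.09) and the scaffold SQSTM1 (−0.38, SE 0.09) were among those that fell. MAGED1, another MAGE protein that binds NGFR, was at 275 and 269 CPM in shCON and at 262 and 195 CPM in shMAGED2 and did not pass (−0.25, SE 0.15; edgeR, adjusted p = 0.274). In the list 1 gene passed without shCON replicate 1 or 2, and 16 and 15 without shMAGED2 replicate 1 and 2.

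Among further partners of BEX proteins, 1 of 13 measured rose and 0 fell (7.69% called, against 23.9% of all genes), with a median of −0.034. At an unadjusted p under 0.05 1 was lower, and by DESeq2 (0) and limma-voom (0) none was called lower. The 1 that rose was PLK1, a mitotic kinase reported to bind BEX4, from 44.3 and 43.4 CPM to 193 and 158 CPM (log2 change 2.00, SE 0.13; edgeR, Benjamini-Hochberg adjusted p = 0.000831). FEM1B, the substrate receptor of a ubiquitin ligase that BEX proteins inhibit, was at 111 and 121 CPM in shCON and at 108 and 99.6 CPM in shMAGED2 and did not pass (−0.16, SE 0.10; edgeR, adjusted p = 0.311). LMO2, the partner of BEX2, had 4 counts in shMAGED2 replicate 1 and 0 in the other 3 libraries. PLK1 alone passed without shCON replicate 1 or 2, and 9 and 6 without shMAGED2 replicate 1 and 2.

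The TCEAL genes take their name from TCEA1, and factors of RNA polymerase II elongation as a list were called in both directions. Of 34 measured factors of RNA polymerase II elongation, 7 rose and 2 fell, 26.5% against 23.9% of all genes, with a median of 0.18. TCEA1 itself fell from 427 and 417 CPM to 167 and 196 CPM (log2 change −1.22, SE 0.11; edgeR, Benjamini-Hochberg adjusted p = 0.0017), and it passed in all 18 fits. TCEA2, its relative, was at 40.2 and 40.1 CPM in shCON and at 19.0 and 31.6 CPM in shMAGED2 and did not pass (−0.66, SE 0.24). TCEA3 was at 3.67 and 3.27 against 6.28 and 2.59 CPM (0.35, SE 0.44), with groups that overlapped. Rises with the smallest p were those of the histone chaperone subunits SUPT16H (0.63, SE 0.09) and SSRP1 (0.51, SE 0.09), of ELOA (0.66, SE 0.13), of LEO1 of the PAF complex (0.77, SE 0.17) and of NELFCD (0.48, SE 0.11), a subunit of the pausing factor NELF. The kinase CDK13 fell (−0.52, SE 0.09). With shCON replicate 1 or 2 left out, 1 gene of the list passed, TCEA1, and 19 and 22 without shMAGED2 replicate 1 and 2.

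The genes whose profile over the 4 libraries was nearest to that of BEX2, by Euclidean distance of centred log2 CPM among 11223 genes, were SLC3A2, the shared chain of several amino acid transporters (distance 0.0667), TSLP, a cytokine (0.119), and HMGCS1, an enzyme of the mevalonate pathway (0.128). SLC3A2 was at 473 and 462 CPM in shCON and at 83.6 and 129.9 CPM in shMAGED2, with replicate 1 the lower of the pair as for BEX2. Nearest to BEX1 were MOCOS, a sulfurase of the molybdenum cofactor (0.0503), VNN2, a pantetheinase (0.0624), and IDH1, the cytosolic isocitrate dehydrogenase (0.136). IDH1 was at 602 and 572 CPM in shCON and at 149 and 156 CPM in shMAGED2. With 4 libraries in 2 groups, any gene with a like change has a like profile.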

How the data were processed

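RNA-seq gene counts and FPKM were analysed for 2 shCON and 2 shMAGED2 libraries of U87-MG. The counts are raw whole-number counts per gene as deposited by the authors. The FPKM values are the authors' deposited values per length and depth. Per the submitters' processing notes, the tools were HISAT2, SAMtools and StringTie and the genome build was hg38, without versions or roles. No source used here states the strand and multi-mapping settings.

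The test was that of edgeR 4.0.16, run under R 4.3.3 (TMM, filterByExpr with a minimum count of 10, robust quasi-likelihood test) over 15293 genes, with Benjamini-Hochberg adjustment and a threshold of 0.05. A value of 0 counts is read against a limit of 3 counts; intervals and limits cover counting error only. Libraries held 34235565 and 28673774 counts for shCON, 31160205 and 36234336 for shMAGED2, and the biological coefficient of variation was 0.167 on 2 residual degrees of freedom. FPKM was used for levels between genes. Gene positions came from GENCODE 29, promoter windows from RefSeq (GRCh38.p14), and identities from global alignment in Biopython 1.88.

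The members and the 11 gene lists were chosen with earlier results of these data known. The genes named are the members, the other TCEAL genes, MAGED2, ZDHHC15, up to 5 genes per list and direction with the smallest p past the threshold, and NGFR, MAGED1, FEM1B, TCEA1, TCEA2 and TCEA3. For likeness of profile they are the 3 nearest genes, averaging 5 CPM or more (prior count 0.5), to each of the 2 members with the largest change. NTRK2, NTRK3, LMO2, ARMCX3-AS1, PPIAP90, SLC25A53 and the marker genes given by level were named after their values were seen. Alternatives were other scalings, DESeq2 1.42.0, limma 3.58.1 (voom, and log2 FPKM with pseudocounts of 1 and 0.1), other filters, a replicate block, leaving out each library, and removal of mitochondrially encoded genes, the last chosen after seeing the data. Some genes that the rule names are not reported here. The edgeR script was tested on simulated data.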

Additional observations from a re-analysis of the deposited data

How the results depend on the processing

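Of 167 member values under 17 alternatives, 166 kept their direction; TCEAL4 ranged from −0.021 without shMAGED2 replicate 1 to 0.17 without shMAGED2 replicate 2, and TCEA3 likewise from −0.42 to 0.85, with the sign turned at the low end. BEX1, BEX2 and BEX4 were past the threshold in 18 of 18 fits, TCEAL9 in 15 and TCEAL8 in 14. On log2(FPKM + 1) with no filter on low values, 1359 genes were called against 3649 and 3 members were lower against 5; this setting also gave 0 of the ARMCX and GASP list, 1 other neighbour, 1 of the neurotrophin receptor list, 1 elongation factor and 3 genes of DNA methylation. On log2(FPKM + 1) and on log2(FPKM + 0.1) with the filter, 2 and 2 other neighbours, 3 and 3 of the receptor list and 5 and 5 elongation factors were called. The cause was not tested.

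Leaving out 1 library gave 1100 to 7447 genes (1100 and 1272 without shCON replicate 1 and 2, 6565 and 7447 without shMAGED2 replicate 1 and 2). Members lower ranged from 3 to 6, the ARMCX and GASP list from 0 to 6, other neighbours from 1 to 7, the receptor list from 1 to 16, BEX partners from 1 to 9, elongation factors from 1 to 22 and DNA methylation genes from 3 to 11. The lone library of a group is then assumed to vary like the other group. The shCON pair differed less (chi-square of the counts per degree of freedom 7.42) than the shMAGED2 pair (89.48). Counts without a shMAGED2 library therefore rest on the smaller spread. The difference between replicates 1 and 2 in shCON was not correlated with that in shMAGED2 (r = −0.0175 over 15293 genes). This cannot show whether same-numbered libraries were paired, which no source used here states. With the replicate block 3336 genes and 4 members were called, without TCEAL8. With mitochondrially encoded genes removed, 3691 genes and 5 members were called. With 2 libraries a group, depth limited BEX5 and the genes at or near 0 counts.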

Other observations

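Genes of DNA methylation, chosen because BEX1 and BEX2 are known to be silenced by promoter methylation in glioma, were called in both directions. Of 15 measured, 4 rose and 2 fell (40% against 23.9% of all genes), with a median log2 change of 0.27. UHRF1, which recruits the maintenance methyltransferase to replicated DNA, went from 37.3 and 33.9 CPM in shCON to 111 and 119 CPM in shMAGED2 (1.69, SE 0.11; edgeR, Benjamini-Hochberg adjusted p = 0.000839). DNMT1, that methyltransferase, rose from 86.2 and 81.9 CPM to 230.4 and 209 CPM (1.38, SE 0.10), and the chromatin remodeller HELLS from 26.3 and 23.1 CPM to 72.3 and 75.1 CPM (1.58, SE 0.12). The de novo methyltransferase DNMT3B rose (0.72, SE 0.20), whereas DNMT3A (−0.64, SE 0.18) and TET2, which oxidises methylcytosine (−0.72, SE 0.20), fell. The calls of DNMT3B, DNMT3A and TET2 lay close to the threshold (edgeR, Benjamini-Hochberg adjusted p = 0.0481, 0.0464 and 0.0469). Methylation itself was not measured. Without shCON replicate 1 or 2, 3 genes of the list passed, UHRF1, DNMT1 and HELLS, and 11 without shMAGED2 replicate 1.

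Among 6 neuronal markers measured, 1 rose and 2 fell (50% against 23.9% of all genes). TUBB3, a neuronal tubulin, rose from 136 and 127 CPM to 224 and 262 CPM (log2 change 0.88, SE 0.11). The microtubule protein MAP2 fell from 43.0 and 40.1 CPM to 13.9 and 7.52 CPM (−1.96, SE 0.29), and SYN1 of synaptic vesicles fell (−1.42, SE 0.34). Of 9 glioma and glial markers measured, 1 rose and 2 fell (33.3% against 23.9% of all genes). NES, an intermediate filament of neural progenitors, rose (1.88, SE 0.18), and OLIG2 (−1.45, SE 0.27) and CHI3L1 (−0.45, SE 0.12) fell. Of 8 measured markers of other cell types, 0 were called by edgeR, against 23.9% of all genes. At an unadjusted p under 0.05, 2 were higher and 1 lower, and DESeq2 called 1 lower and limma-voom 0.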
